A study of Macaca nemestrina with 15 samples.

Results

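The genes described here are transcriptional regulators of B-cell identity and activation: *PAX5*, *EBF1*, *POU2AF1*, *SPIB*, *BCL11A*, *MEF2C*, *SP140*, *ZBTB32*, *POU2F2* and *BACH2*. They were found by gene name in a table of read counts with 28865 features from the peripheral blood mononuclear cells (PBMCs) of pig-tailed macaques. Of the 10 names, 9 had a row, and *SPIB* was not analysed here. A filter on low counts kept 12880 features, among them 8 of these genes, and *PAX5* did not pass it. The genes were chosen by their known role in B cells and selected on the levels measured in these same libraries, since it was already known that B-cell genes were lower at the later time points than before treatment. Their values and differences between time points are therefore given as a description, without a test of the genes as a group.

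B cells acquire and keep their identity through a small network of DNA-binding proteins. EBF1 and PAX5 switch on the genes of the B-cell receptor and its signalling chain and hold down genes of other lineages, octamer factors with their coactivator drive immunoglobulin and germinal center genes, and repressors such as BACH2 hold mature B cells back from becoming plasma cells. Several of these proteins are also made in other blood cells, including dendritic cells, monocytes and T cells, so in PBMCs their RNA does not come from B cells alone.

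Islatravir (ISL) is a nucleoside inhibitor of HIV reverse transcriptase, and the study followed its effect on blood cells and their gene expression. All 5 animals were female *M. nemestrina* macaques given 30 mg/kg ISL by mouth once a week for 12 weeks, with no untreated animals beside them. By the study's account, each animal gave 3 libraries: before treatment, at week 12 (end of dosing) and at week 18, after dosing had stopped. The groups were thus 5 pre-treatment, 5 week-12 and 5 week-18 libraries, and replicates are separate animals, called Z15228, Z13076, Z15339, Z15303 and Z15408 by the labels. The design cannot tell apart an effect of the drug from one of time or repeated handling.

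The libraries held 5610597 to 10379572 counts (median 8871860), with the lowest totals in animal Z15303 at week 12 and week 18. The days written in the library names place the second sample of an animal 56 or 57 days and the third 84 days after its first, whereas the labels call them week 12 and week 18, and the labels' names are used. A figure legend of the study also dates the last sample earlier than week 18. The time of both later samples relative to the doses is therefore uncertain, including whether the week-12 sample fell at the end of dosing. Animals Z15339, Z15303 and Z15408 share the same days and the other 2 animals have their own. Libraries of an animal deviated together from the means of their time points (mean r = 0.551 over 15 pairs, lowest 0.351, vs. a mean of −0.137 over 60 pairs of libraries from different animals and time points), so differences within animals are given beside the group means. Levels are CPM, the standard unit that sets a count against the total of its library, with TMM scaling for library composition, a fold change is on the log2 scale from edgeR, and a difference within an animal is that of log2 CPM with a prior count of 2, which draws small counts toward 0. CPM does not correct for gene length, so levels are compared between libraries and not between genes. In a bulk sample, fewer B cells and less RNA per B cell cannot be told apart. The study counted B cells of these animals by flow cytometry and reported fewer of them during and after treatment. RNA per B cell was not tested.

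Of the 8 genes past the filter, 7 had a log2 fold change below 0 at week 12 vs. pre-treatment, where 49.0% of all tested features were below 0. Their median was −0.58 (range −1.30 to 0.01), and the median over all tested features was 0.00370. At week 18 vs. pre-treatment 7 were again below 0, against 49.8% of features, with a median of −0.70 (−1.66 to 0.07) and a median of 0.000711 over all features. Between week 18 and week 12 the median was −0.09 (−0.42 to 0.34), with 5 genes below 0 where 51.1% of features were. The genes were picked with these contrasts known, and nothing is read from the counts.

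With no term beside the time point, edgeR's quasi-likelihood test called 0 of the 8 genes at an adjusted p of 0.05 in each comparison, and 0.00% of all features at week 12, 0.00% at week 18 and 0.00% for week 18 vs. week 12. At an unadjusted p under 0.05 this test listed 1, 2 and 0 of the 8 genes, among 207, 218 and 65 features. DESeq2 without a term for the animal called 0 of them in each comparison, beside 1, 0 and 0 of 20694 features. With the animal as a block, edgeR again called 0 of the 8 genes in each comparison, beside 0.00776%, 0.00776% and 0.00% of features. At an unadjusted p under 0.05 this fit listed 5, 6 and 0 of the 8 genes, among 604, 754 and 279 of 12880 features. DESeq2 with the animal as a block called *MEF2C* and *SP140* at week 12 and *MEF2C*, *SP140* and *ZBTB32* at week 18, all lower than before treatment, and none of the 8 between week 18 and week 12. It called 0.235%, 0.246% and 0.0386% of the features it tested, which numbered 11487, 20732 and 20732. *EBF1* and *POU2AF1* were not among those tested at week 12, so this fit made no decision on them there.

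Counted by animal, *EBF1*, *MEF2C*, *SP140* and *ZBTB32* were lower at week 12 than before treatment in all 5 animals, as were 3.46% of all tested features. At week 18 *SP140* and *POU2F2* were lower in all 5, as were 3.49% of features. *POU2AF1* was the one gene lower at week 18 than at week 12 in every animal, as were 2.87% of features. For none of the 9 genes did the 5 values of one time point lie wholly apart from those of another. Groups lay apart, with all later values below all pre-treatment values, for 0.163% of features at week 12 and 0.202% at week 18.

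**Figure D1:**
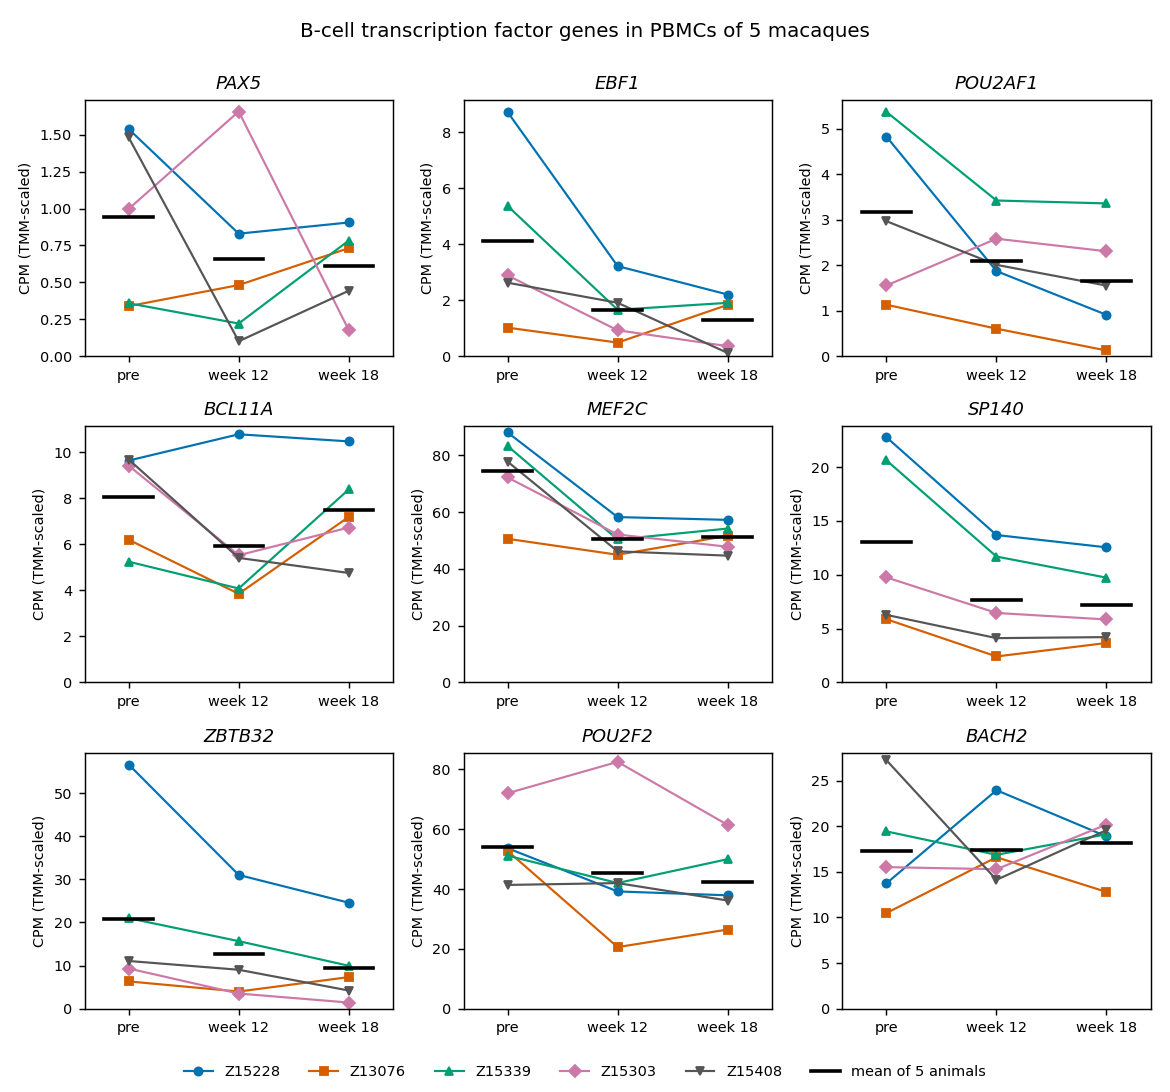
TMM-scaled CPM (linear axis from 0, a scale for each gene) of the 9 measured B-cell transcription factors at each time point, with a line for each of the 5 animals and a black bar at the mean of each time point. All 5 lines of *MEF2C* and *SP140* go down from pre-treatment to week 12, the lines of *BACH2* cross, and the ranges of the time points overlap for every gene.

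Among the factors that set up the lineage, *EBF1* had a lower mean at both later times and *PAX5* was near the limit of detection. *EBF1* encodes early B-cell factor 1, which opens and activates B-cell genes together with PAX5. Before treatment its level was 8.72 CPM in Z15228, 1.01 in Z13076, 5.36 in Z15339, 2.88 in Z15303 and 2.62 in Z15408 (mean 4.12 ± 3.005, SD, n = 5). At week 12 the same animals had 3.21, 0.481, 1.65, 0.921 and 1.90 CPM (mean 1.63 ± 1.05), and at week 18 they had 2.20, 1.83, 1.90, 0.354 and 0.111 CPM (mean 1.28 ± 0.969). Every animal was lower at week 12, and all but Z13076, which started lowest, were lower at week 18. The log2 fold change was −1.30 (SE 0.65) at week 12 and −1.66 (SE 0.67) at week 18, or −1.23 (SE 0.46) and −1.57 (SE 0.48) with the animal as a block.

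Raw counts of *EBF1* ran from 9 to 85 in the pre-treatment libraries, from 4 to 31 at week 12 and from 1 to 17 at week 18. The single-animal differences at week 12 were −1.38, −0.80, −1.57, −1.43 and −0.42 in the order above. At week 18 they were −1.88, 0.72, −1.39, −2.40 and −3.04, so that the SD over animals was 1.43, against 0.489 at week 12. The mean difference at week 18 was −2.28 in the 3 animals that share library days and −0.58 in the other 2, whereas at week 12 these means were −1.14 and −1.09.

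*PAX5*, the factor that commits precursors to the B lineage and maintains mature B cells, had 1 to 15 counts in a library. Its level was 1.54, 0.338, 0.358, 0.997 and 1.48 CPM before treatment, 0.830, 0.481, 0.221, 1.66 and 0.10 CPM at week 12, and 0.905, 0.731, 0.783, 0.177 and 0.442 CPM at week 18, with animals in the same order. The means were 0.943 ± 0.582, 0.658 ± 0.625 and 0.608 ± 0.295 CPM, and 3 of 5 animals were lower at week 12 and at week 18. Without a filter on low counts the log2 fold change was −0.58 (SE 0.67) at week 12 and −0.59 (SE 0.66) at week 18, smaller than its SE in both. At this depth a difference of that size in *PAX5* was not detectable.

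The octamer factor and its coactivator both had log2 fold changes below 0 at both later times. Their log2 CPM had r = 0.60 over the 15 libraries. *POU2AF1* encodes a coactivator, also called OCA-B, that binds to octamer factors on immunoglobulin promoters and is needed for germinal centers. It was measured at 4.82, 1.13, 5.36, 1.55 and 2.96 CPM before treatment (mean 3.17 ± 1.90), 1.87, 0.601, 3.42, 2.58 and 2.004 CPM at week 12 (mean 2.09 ± 1.03), and 0.905, 0.122, 3.35, 2.30 and 1.55 CPM at week 18 (mean 1.65 ± 1.25). Z15303 was higher than before treatment at both later times, by 0.65 and 0.51 on the log2 scale, and the other 4 animals were lower at both. The log2 fold change was −0.60 (SE 0.60) at week 12 and −0.94 (SE 0.61) at week 18, or −0.62 (SE 0.37) and −1.05 (SE 0.38) with the animal as a block. Libraries held 1 to 47 counts of it.

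*POU2AF1* differed between the sets of animals by sampling days. The mean difference was −0.16 at week 12 and −0.33 at week 18 in the 3 animals that share their days, and −0.98 and −2.04 in Z15228 and Z13076. Its step from week 12 to week 18 was below 0 in 5 of 5 animals, from −1.23 to −0.03, with a log2 fold change of −0.34 (SE 0.62).

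*POU2F2* encodes Oct-2, the octamer-binding factor of B cells, which monocytes and activated T cells also make. Its level before treatment was 53.6, 52.8, 51.1, 72.03 and 41.4 CPM (mean 54.2 ± 11.1). At week 12 it was 39.2, 20.6, 42.0, 82.5 and 42.0 CPM (mean 45.3 ± 22.7), with Z13076 well below its own start and Z15303 and Z15408 above theirs. At week 18 it was 37.9, 26.4, 50.0, 61.4 and 36.2 CPM (mean 42.4 ± 13.5), lower than before treatment in each animal, by 0.03 to 0.99 on the log2 scale. The log2 fold change was −0.27 (SE 0.29) at week 12 and −0.36 (SE 0.29) at week 18, or −0.37 (SE 0.17) and −0.41 (SE 0.17) with the animal as a block. The mean difference at week 12 was −0.02 in the 3 animals that share library days and −0.90 in the other 2, and at week 18 it was −0.15 and −0.74.

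*MEF2C* was lower at both later times, and its later levels spanned a narrow range. It encodes a MADS-box factor that acts downstream of the B-cell receptor in B-cell survival and proliferation, and it is also expressed in monocytes and dendritic cells. Its level before treatment was 88.1 CPM in Z15228, 50.6 in Z13076, 83.3 in Z15339, 72.3 in Z15303 and 77.8 in Z15408 (mean 74.4 ± 14.6). At week 12 it was 58.3, 45.0, 50.4, 52.1 and 46.2 CPM (mean 50.4 ± 5.29), and at week 18 it was 57.3, 51.7, 54.2, 47.8 and 44.7 CPM (mean 51.1 ± 5.01). The pre-treatment values of 4 animals lay above every later value of all 5, and that of Z13076 lay among the later values.

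The log2 fold change of *MEF2C* was −0.56 (SE 0.14) at week 12 and −0.54 (SE 0.14) at week 18, on 270 to 859 counts per library. Week 18 and week 12 differed by 0.02 (SE 0.14). Within animals the difference at week 12 ran from −0.75 to −0.17, and at week 18 it was 0.03 in Z13076 and −0.80 to −0.59 in the others. With the animal as a block, DESeq2 gave −0.55 (SE 0.12) and −0.52 (SE 0.12). By sampling days the means were −0.65 in the 3 animals that share them and −0.38 in the other 2 at week 12, and −0.67 and −0.29 at week 18.

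*SP140* and *ZBTB32* differed several-fold between animals, and both were lower at week 12 than before treatment in each of them. *SP140* encodes a nuclear body protein that reads histone marks and represses genes in mature B cells and macrophages. It was at 22.8, 5.86, 20.6, 9.75 and 6.27 CPM before treatment (mean 13.1 ± 8.07), 13.7, 2.41, 11.7, 6.45 and 4.11 CPM at week 12 (mean 7.67 ± 4.85), and 12.5, 3.66, 9.73, 5.84 and 4.20 CPM at week 18 (mean 7.19 ± 3.82). Z15228 and Z15339 were the highest at every time point, and all 5 animals were lower than their own pre-treatment value at both later times.

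The differences of *SP140* within animals were −1.21 to −0.58 at week 12 (mean −0.78 ± 0.26, SD) and −1.07 to −0.55 at week 18 (mean −0.77 ± 0.20). The spread of these differences was smaller than that of the pre-treatment levels, which had an SD of 0.907 on the log2 scale. The fold change therefore had an SE of 0.50 without the animal in the fit (−0.76 at week 12, −0.86 at week 18) and 0.16 and 0.17 with the animal as a block (−0.78 and −0.81). The 3 animals that share library days had a mean difference of −0.66 at week 12 and the other 2 had −0.97, and at week 18 these were −0.78 and −0.75.

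*ZBTB32* encodes a BTB zinc finger repressor of activated lymphocytes that restrains the recall response of memory B cells. Its level before treatment was 56.6, 6.31, 21.0, 9.31 and 11.1 CPM (mean 20.9 ± 20.7), an 8.97-fold range between Z15228 and Z13076. At week 12 it was 31.0, 3.97, 15.7, 3.50 and 9.02 CPM (mean 12.6 ± 11.4), lower in each animal by 0.29 to 1.35 on the log2 scale. At week 18 it was 24.6, 7.31, 9.95, 1.42 and 4.20 CPM (mean 9.49 ± 9.02), with a difference of 0.21 in Z13076 and of −2.53 in Z15303, where 8 counts were left.

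The log2 fold change of *ZBTB32* was −0.71 (SE 0.71) at week 12 and −1.13 (SE 0.73) at week 18, or −0.70 (SE 0.25) and −1.10 (SE 0.26) with the animal as a block. The mean difference at week 12 was −0.69 in the animals that share sampling days and −0.75 in the other 2, and at week 18 it was −1.65 and −0.50. Between week 12 and week 18 the gene was lower in 4 of 5 animals and higher in Z13076 (log2 fold change −0.42, SE 0.73).

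**Figure D2:**
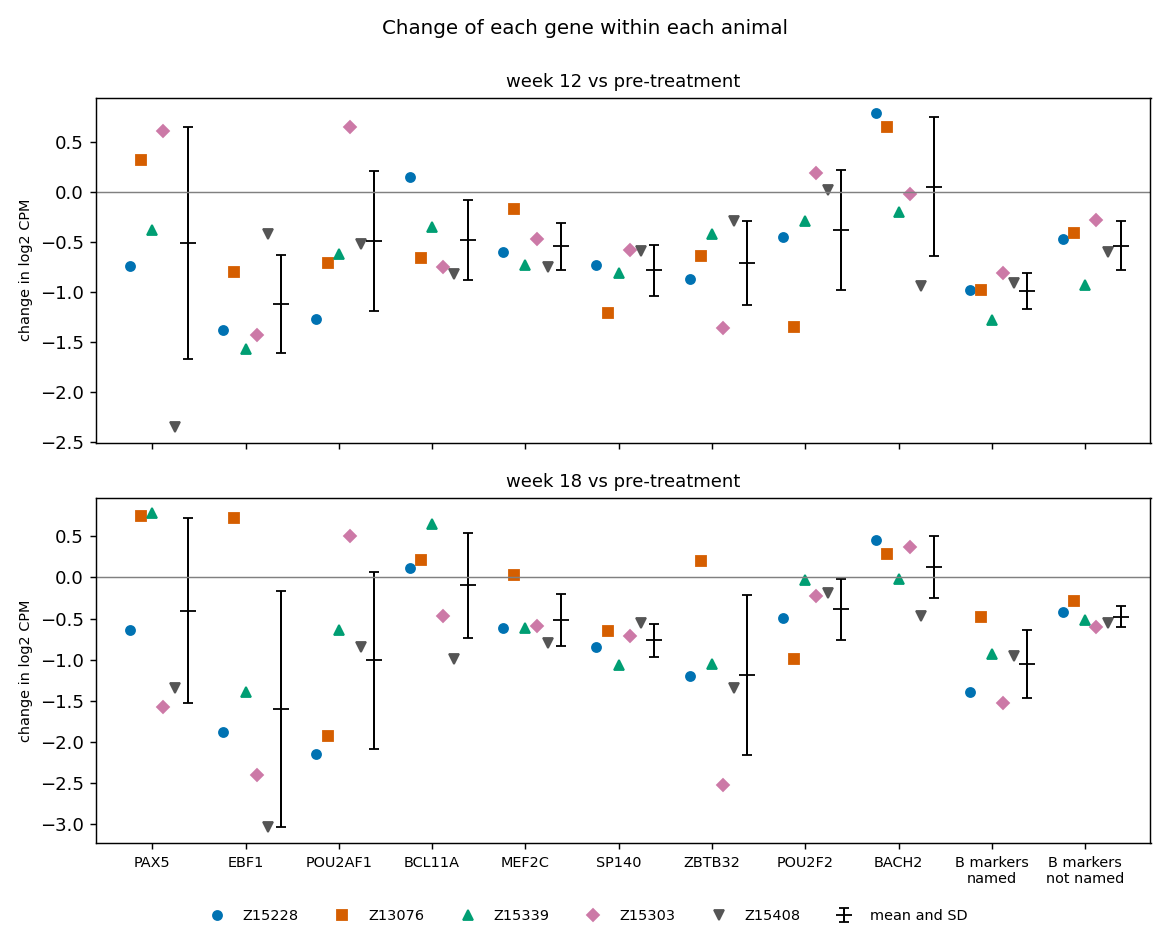
Difference in log2 CPM of each gene within each animal, week 12 vs. pre-treatment and week 18 vs. pre-treatment, with points for the 5 animals, and their mean with SD as error bar. The last columns show the mean of the B-cell markers named and not named by the study. All points of *SP140* lie below 0 in both comparisons and those of *BACH2* lie on both sides of it.

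*BCL11A* and *BACH2*, both repressors, showed no common direction at week 18. *BCL11A* encodes a zinc finger protein needed for early B-cell development, which plasmacytoid dendritic cells also express and which silences fetal globin in red cell precursors. It was at 9.64, 6.20, 5.25, 9.42 and 9.69 CPM before treatment (mean 8.04 ± 2.14), 10.8, 3.85, 4.08, 5.53 and 5.41 CPM at week 12 (mean 5.93 ± 2.82), and 10.5, 7.19, 8.38, 6.73 and 4.75 CPM at week 18 (mean 7.51 ± 2.11). At week 12 it was lower in 4 animals and higher in Z15228, with a log2 fold change of −0.44 (SE 0.30). At week 18 it was lower in 2 animals and higher in 3, with a log2 fold change of −0.10 (SE 0.30), a value above 0 in 4 of 19 settings of the analysis. Over these settings that value lay between −0.29 and 0.14. The mean difference at week 12 was −0.63 in the animals with shared sampling days and −0.25 in the other 2, and at week 18 it was −0.27 and 0.16.

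*BACH2* encodes a repressor of *PRDM1* that keeps B cells from plasma cell fate and is also made by naive and regulatory T cells. Its level before treatment was 13.7, 10.5, 19.4, 15.5 and 27.2 CPM (mean 17.3 ± 6.43). At week 12 it was 23.95, 16.6, 16.9, 15.3 and 14.1 CPM (mean 17.4 ± 3.84), and at week 18 it was 18.9, 12.8, 19.1, 20.2 and 19.6 CPM (mean 18.1 ± 3.01). The means of the 3 time points differed by less than the spread between animals, with log2 fold changes of 0.01 (SE 0.23) and 0.07 (SE 0.23). With the animal as a block these were 0.05 (SE 0.20) and 0.09 (SE 0.20).

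Behind the near-equal means of *BACH2*, single animals moved in opposite directions at week 12, by 0.79 in Z15228 and 0.65 in Z13076 against −0.94 in Z15408, with −0.20 in Z15339 and −0.02 in Z15303. The animals that share sampling days had a mean of −0.39 and the other 2 had 0.72. At week 18 these means were −0.04 and 0.37. The sign of the week-12 fold change was not fixed, being below 0 in 6 of 19 settings, from −0.40 to 0.32.

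Levels of B-cell RNA as a whole were followed with a pair of marker lists. The 12 markers that the study had named from these samples, such as *MS4A1* and *FCRL2*, are not independent evidence of direction, and their median log2 fold change was −1.04 at week 12 and −1.10 at week 18. All 12 were below 0 at both times, DESeq2 with the animal as a block called 11 of them lower at each time, and edgeR called 0 in both of its fits (6 and 7 at an unadjusted p under 0.05 without the block, 12 and 12 with it). The second list had 14 B-cell markers that the study did not name, of which 11 were tested. All 11 were below 0 at both times, with medians of −0.51 and −0.46. None of the 11 was called by edgeR in either fit or by DESeq2 in either fit (4 and 4 at an unadjusted p under 0.05 in edgeR without the block, 8 and 6 with it). In this list *VPREB3* had −1.45 (SE 0.47) at week 12 and −0.52 (SE 0.45) at week 18. Its mean level was low, at 1.89 CPM before treatment and 0.704 CPM at week 12. At week 12 *RALGPS2* had −0.96 (SE 0.32), *CR2*, the complement receptor CD21, −0.80 (SE 0.30), and *BLNK*, the B-cell linker protein, −0.55 (SE 0.24).

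Summed over the markers not named by the study, pre-treatment libraries held 134 to 218 CPM, those of week 12 held 106 to 172 CPM and those of week 18 held 94.7 to 174 CPM. Their mean log2 CPM was lower in 5 of 5 animals at both times, by 0.53 ± 0.25 at week 12 and 0.48 ± 0.12 at week 18 (SD). Subtracting this in each animal from the difference of a regulator gives how far the regulator departs from these B-cell markers. *MEF2C* departed by −0.01 ± 0.21 at week 12 and −0.04 ± 0.22 at week 18. *POU2AF1*, *BCL11A*, *PAX5* and *POU2F2* were between 0.03 and 0.16 at week 12, all with an SD over animals above 0.50. At week 18 *POU2AF1* departed by −0.53 ± 1.18 and was above the markers in 1 of 5 animals. *BCL11A* then departed by 0.38 ± 0.59 and was above them in 4 of 5, with *PAX5* at 0.07 ± 1.04 and *POU2F2* at 0.09 ± 0.49.

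*EBF1* was lower than the markers by 0.58 ± 0.51 at week 12 and by 1.12 ± 1.33 at week 18, and *SP140* by 0.25 ± 0.36 and 0.29 ± 0.23. *ZBTB32* departed by −0.18 ± 0.63 and −0.71 ± 0.86. *BACH2* was above the markers by 0.59 ± 0.64 at week 12, in 4 of 5 animals, and by 0.60 ± 0.35 at week 18, in 5 of 5. The list leaves out the markers that the study named as lower in these samples, whereas the study named *MEF2C*, *SP140* and *ZBTB32*. It is thus no neutral reference for them. The mean of the markers that the study named was lower by 0.99 ± 0.18 and 1.06 ± 0.42. Against that mean *MEF2C* was higher by 0.45 and 0.54, in 5 of 5 animals at both times. *SP140* departed from it by 0.21 and 0.29, *ZBTB32* by 0.28 and −0.13, and *EBF1* by −0.13 and −0.54. The sign and size of a departure therefore rest on the list used. The median departure over the genes went from 0.02 to 0.47 at week 12 and from −0.17 to 0.41 at week 18 with this choice.

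**Figure D3:**
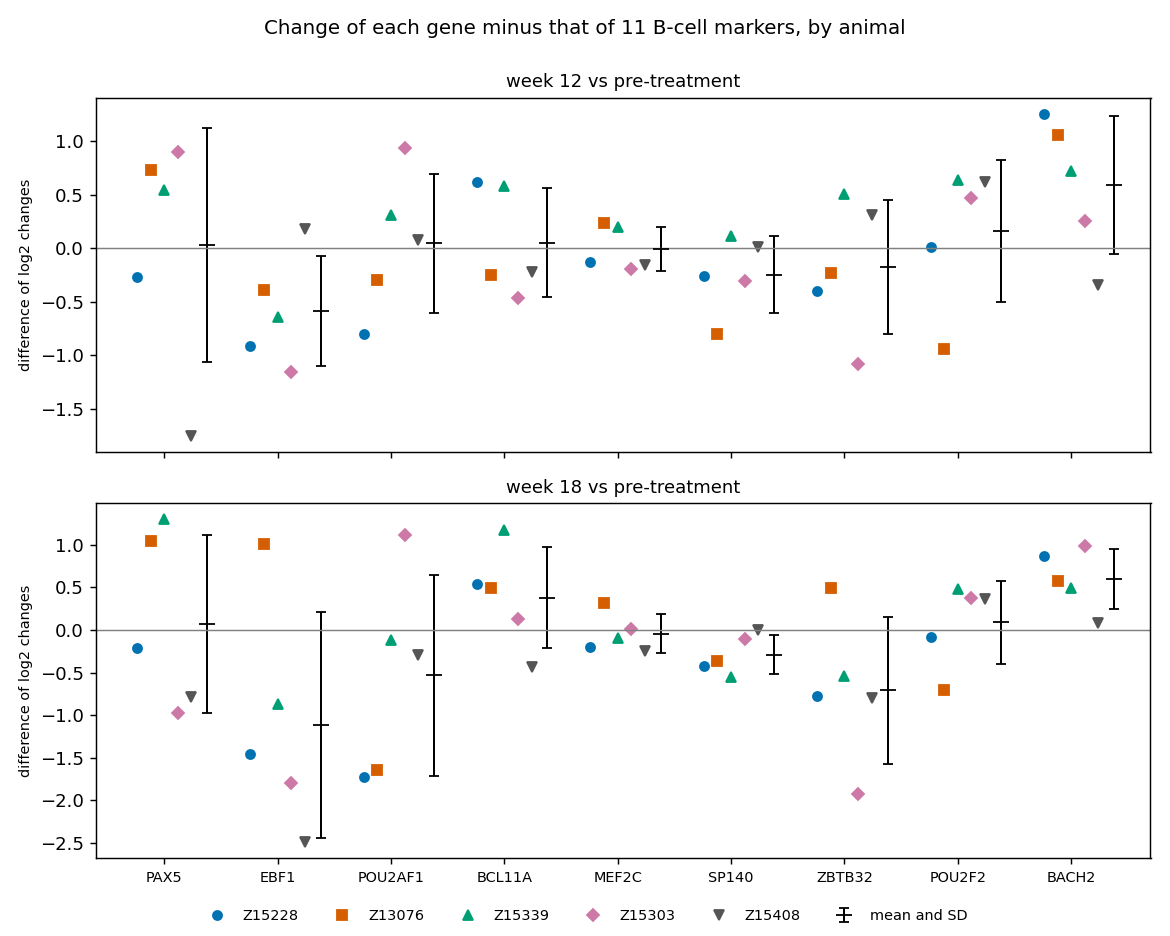
Difference in log2 CPM of each gene minus the mean difference of the B-cell markers not named by the study, for each of the 5 animals at week 12 and week 18 vs. pre-treatment, with the mean and SD as error bar. The points of *MEF2C* lie around 0, and the 5 points of *BACH2* at week 18 lie above it.

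Across the 15 libraries, which come from 5 animals and share the scaling, log2 CPM of 4 of the genes followed the B-cell markers. With the mean of the markers not named by the study, Pearson's r was 0.86 for *MEF2C*, 0.80 for *EBF1*, 0.75 for *SP140* and 0.72 for *ZBTB32*. It was 0.54 for *BCL11A*, 0.54 for *PAX5*, 0.33 for *POU2AF1*, 0.24 for *POU2F2* and −0.01 for *BACH2*. After each animal's mean was subtracted, the values were 0.92 for *MEF2C*, 0.84 for *SP140*, 0.72 for *EBF1* and 0.67 for *ZBTB32*, and *POU2F2* was at 0.57. With the plasma cell markers r was then 0.59 for *MEF2C*, 0.71 for *SP140*, 0.78 for *EBF1*, 0.77 for *ZBTB32* and 0.66 for *POU2F2*. For *EBF1*, *ZBTB32* and *POU2F2* this was above the value with the B-cell markers, so the tie was not particular to that list. *BACH2* was at −0.06 with the B-cell markers not named by the study, and at −0.73 with the plasma cell markers and −0.63 with the plasmacytoid dendritic cell markers. Both sets of r keep the differences between time points, which were known when genes and lists were chosen. Over the 5 pre-treatment libraries alone, r was 0.96 for *SP140*, 0.88 for *ZBTB32*, 0.83 for *EBF1*, 0.82 for *POU2AF1* and 0.61 for *MEF2C*. It was −0.01 for *POU2F2*, −0.05 for *PAX5*, −0.11 for *BACH2* and −0.28 for *BCL11A*.

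Between the genes themselves, the median r over 36 pairs was 0.36 (−0.07 to 0.86), and the highest was that of *EBF1* with *ZBTB32*.

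**Figure D4:**
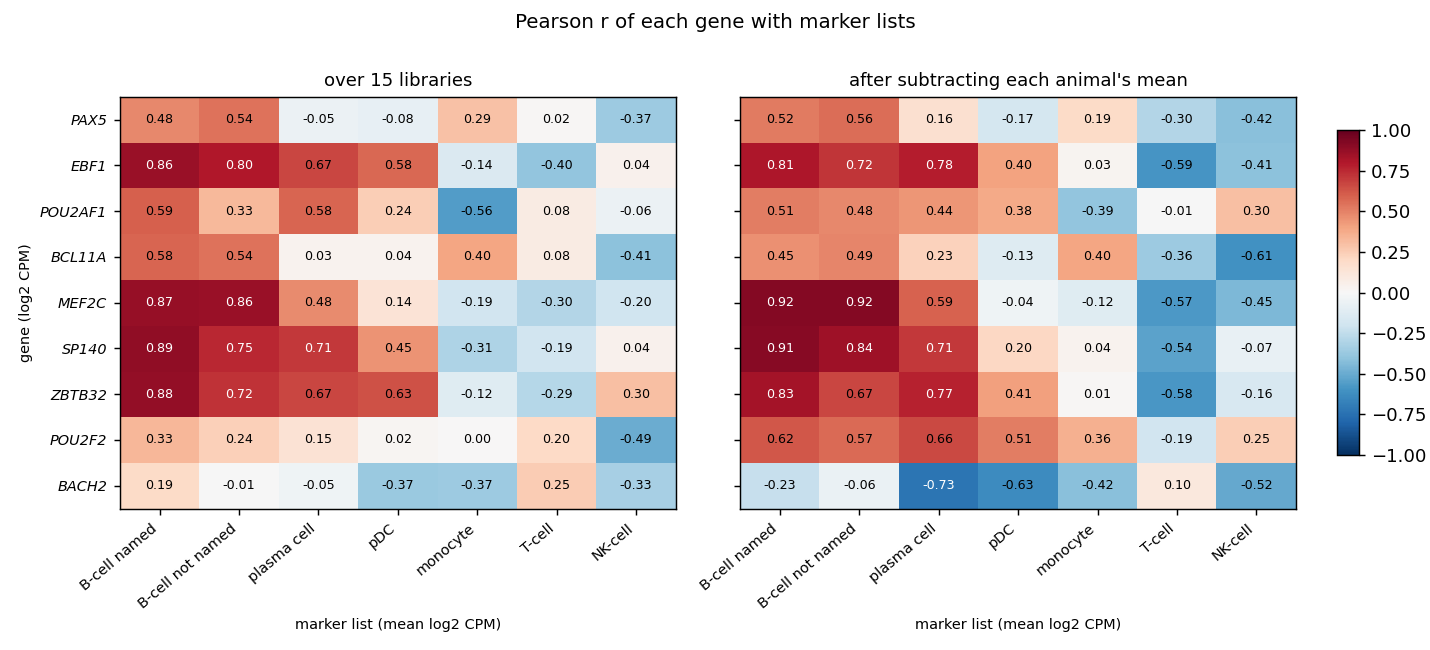
Pearson's r over 15 libraries between log2 CPM of each regulator and the mean log2 CPM of each marker list (pDC, plasmacytoid dendritic cell), shown as colour with its value, over the libraries as they are (left) and after each animal's mean was subtracted (right). On the left *MEF2C*, *SP140*, *ZBTB32* and *EBF1* have values of 0.72 to 0.89 with both B-cell lists, and *BACH2* has 0.19 and −0.01.

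The genes most like each regulator were taken from 9002 named genes with a mean of at least 5 CPM, by r over the same 15 libraries. For *SP140* they were *CD79A*, a chain of the B-cell receptor (r = 0.96), *C16orf74* (0.89) and *FAM187B* (0.89). For *ZBTB32* they were *TNFRSF13B*, the receptor TACI (0.96), *CYB561A3* (0.93) and *MS4A1*, which encodes CD20 (0.92). For *EBF1* they were *MS4A1* (0.87), *BLNK* (0.86) and *VAV2* (0.86), and for *MEF2C* they were *TCF4* (0.89), *FCRLA* (0.89) and *VAV2* (0.88).

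The neighbours of *POU2AF1*, of which the first was also among those of *SP140*, were *C16orf74* (0.87), *STRBP* (0.84) and *CACNA1A* (0.82), and *POU2F2* was nearest to *MKNK2* (0.91), a kinase that acts on the translation factor eIF4E. *BACH2* was nearest to *FAM234B* (0.82), *TCF7*, a factor of naive T cells (0.80), and *EPB41* (0.80), *BCL11A* to *MYCL* (0.82), and *PAX5*, on few counts, to *PUS7L* (0.86). After each animal's mean was subtracted, the first was *BLK*, a B-cell kinase, for *MEF2C* (0.95), *FCRL1* for *EBF1* (0.90), *NFKBIZ* for *SP140* (0.94), *ARL15* for *ZBTB32* (0.91), *SOCS7* for *POU2AF1* (0.90), *LPP* for *POU2F2* (0.94), *MCL1* for *BCL11A* (0.93), *ZNF558* for *BACH2* (0.94) and *PUS7L* for *PAX5* (0.87). The median r over all candidates was near 0 for each gene, from −0.05 to 0.01 before this subtraction and from −0.04 to 0.04 after it. That median is no measure for the genes listed, which are the highest of 9002 candidates. Such a choice gives high values of r by itself, and nothing is read from their size.

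Other regulators of the B lineage formed a list of 18, of which 17 were tested and *XBP1* was not analysed here. Their median log2 fold change was −0.08 at week 12 (13 of 17 below 0) and −0.09 at week 18 (12 of 17 below 0). The exception was *TCF4*, the E protein E2-2 of B cells and plasmacytoid dendritic cells, with a pre-treatment level of 40.1 ± 12.1 CPM, followed by 26.3 ± 5.10 at week 12 and 25.9 ± 6.60 at week 18. It was lower in 5 of 5 animals at both times (log2 fold change −0.61, SE 0.21, and −0.63, SE 0.22) and was the one gene of this list that DESeq2 with the animal as a block called. edgeR called 0 of the 17 in either fit, with 1 and 1 at an unadjusted p under 0.05 without the block and 3 and 4 with it. *IRF8*, a factor of B cells, monocytes and dendritic cells, had −0.42 (SE 0.30) and −0.21 (SE 0.30), and was lower in 5 of 5 animals at both times. With the animal as a block it had −0.38 (SE 0.14) and −0.22 (SE 0.14). *KLF2*, a factor of resting lymphocytes, was the one gene of the list higher in all animals at week 12 (log2 fold change 0.23, SE 0.19), and at week 18 it was higher in 4 of 5. *TCF3*, the E protein E2A, had −0.33 (SE 0.27) and −0.45 (SE 0.27), and *MYB* had −0.30 (SE 0.34) at week 12. With the animal as a block *TCF3* had −0.29 (SE 0.17) and −0.43 (SE 0.18).

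Relatives of these genes in the same protein families numbered 16, of which 10 were tested. Their medians were −0.07 at week 12 and −0.11 at week 18, and neither tool called any in either fit (0 and 1 at an unadjusted p under 0.05 in edgeR without the block, 0 and 1 with it). *BACH1*, a relative of *BACH2*, had −0.31 (SE 0.21) at week 12, *MEF2A* −0.26 (SE 0.14), *SPI1*, the PU.1 factor of monocytes and B cells, −0.26 (SE 0.16), and *BCL11B*, the T-cell relative of *BCL11A*, 0.21 (SE 0.27).

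Genes that these regulators are known to repress gave medians of −0.14 at week 12 and −0.05 at week 18 over the 7 tested of 8, and again neither tool called any (0 and 0 at an unadjusted p under 0.05 in edgeR without the block, 1 and 2 with it). *JCHAIN*, the joining chain of secreted antibodies, had −0.80 (SE 0.72) at week 12 and −0.93 (SE 0.72) at week 18. With the animal as a block it had −0.80 (SE 0.24) and −1.06 (SE 0.24). It was lower than before treatment in 4 animals at week 12 and 5 at week 18. *CIITA*, the MHC class II activator, had −0.27 (SE 0.22) at week 12, *CSF1R*, the receptor for the monocyte growth factor, −0.23 (SE 0.23), and *NOTCH1* −0.14 (SE 0.18).

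Lists for the other cells of PBMCs were read the same way, and edgeR called 0 of their genes in either fit, as did DESeq2. At week 12 and week 18 vs. pre-treatment 0 of these genes had an unadjusted p under 0.05 in edgeR without the block, and between week 18 and week 12 the 1 gene that did was the monocyte marker *CD14* (log2 fold change 0.68, SE 0.32). With the block, the counts at week 12 and week 18 were 1 and 2 for plasma cell and 1 and 2 for monocyte markers. They were 0 and 1 for plasmacytoid dendritic cell markers, 0 and 2 for NK-cell markers, and 0 and 0 for the other lists. Between week 18 and week 12 the block gave 3 monocyte, 2 NK-cell and 1 plasmacytoid dendritic cell marker. At week 12 and week 18 the median log2 fold change was −0.45 and −0.47 for 4 plasma cell markers, 0.08 and −0.17 for 6 plasmacytoid dendritic cell markers, −0.19 and 0.22 for 8 monocyte markers, and 0.14 and 0.05 for 8 T-cell markers. It was 0.12 and −0.05 for 8 NK-cell markers and 0.21 and 0.13 for 5 platelet markers, and *ALAS2*, the 1 red cell marker tested, had −0.74 (SE 0.90) and −0.44 (SE 0.90). Of the plasma cell markers, *JCHAIN* is also in the list of repressed genes, with its values given there. *MZB1* had −0.45 (SE 0.71) and *TNFRSF17*, the plasma cell receptor BCMA, −0.44 (SE 0.63) at week 12.

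The summed level of the plasma cell markers was 130 to 788 CPM in the pre-treatment libraries, 68.1 to 480 CPM in those of week 12 and 45.5 to 487 CPM in those of week 18, and that of the monocyte markers was 2034 to 4055, 2080 to 3437 and 2424 to 5216 CPM. Plasmacytoid dendritic cell markers summed to 54.5 to 129 CPM, 78.8 to 118 CPM and 51.9 to 102 CPM. No list was at 0 in any library, and the part of these cells in the levels of *BCL11A*, *MEF2C*, *POU2F2* and *BACH2* was not tested.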

How the data were processed

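PBMC RNA from 5 macaques at 3 time points was made into 15 libraries by SMART-Seq amplification and sequenced with 100-base reads. The authors aligned reads with STAR 2.7.9a to the *M. nemestrina* genome and deposited raw read counts per gene, without normalization; the strand setting of the counting is not given in the sources used here. Time points and animals came from the labels. Depth per library is given in the report, and genes of a few counts have a wide counting error.

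Counts were analysed in R 4.3.3 with edgeR 4.0.16 (TMM scaling, filterByExpr with a minimum count of 10, quasi-likelihood test) across the 15 libraries, fitting the time point alone, with Benjamini-Hochberg adjustment over 12880 features. A call is an adjusted p under 0.05. Standard errors are the absolute log2 fold change over the square root of F. Unless the block is named, a fold change and its SE come from the fit without it. That SE takes in the differences between animals. The animal was a block in an alternative fit, since the labels tie libraries to animals. Other alternatives were DESeq2 1.42.0 with and without the block, no TMM, no filter, only the time points compared, each animal left out, other B-cell markers and a prior count of 0.5. After the data were seen, the block without the filter and the 3 animals with shared sampling days were added. The edgeR step was tested on simulated data.

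The genes and lists were chosen with earlier results of these data known. All 10 genes are named, with up to 4 genes of each other list by size of the week-12 fold change and any called, and the genes with the highest r over 15 libraries, up to 3 for each regulator. *KLF2* and *CD14* were named after their values were seen. The *MS4A1* and *FCRL2* values are given by their list. Values of a withheld item are not reported here. The gene table used here held none of the 10 names, so no coordinates or sequences are given.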

Additional observations from a re-analysis of the deposited data

Results flagged for a closer look

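For the 9 genes, 27 groups of 5 libraries were checked for a library far from the others, by whether its gap to the nearest one took up more than 0.71 of the range of the group. Chance alone marks about 1 in 20 such groups. *BCL11A* at week 12 was 10.8 CPM in Z15228, with the nearest animal at 5.53 CPM (gap of 0.758 of the range). *BACH2* at week 12 was 23.95 CPM in Z15228, with the nearest at 16.9 CPM (0.721). *BACH2* at week 18 was 12.8 CPM in Z13076, with the nearest at 18.9 CPM (0.823).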

How the results depend on the processing

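Without the animal in the fit, edgeR called 0 features in each comparison with TMM or without it, with or without the filter, with only the compared time points and with each animal left out. For week 12 vs. pre-treatment DESeq2 called 1. With the animal as a replicate block, edgeR called 1 feature at week 12, 1 at week 18 and 0 for week 18 vs. week 12, and DESeq2 called 27, 51 and 8. The block without the filter gave 83, 136 and 5 of the 20732 features with a count. The block with only the 3 animals that share sampling days gave 7, 7 and 0. Leaving out each animal under the block gave 0 to 6 at week 12, 0 to 17 at week 18 and 0 to 0 between the later times. The highest counts were those without Z13076, where *MEF2C* at week 12 and *MEF2C* and *ZBTB32* at week 18 were called. The block without the filter called *MEF2C*, *SP140* and *ZBTB32* at both times and *EBF1* at week 18. The cause of these differences was not tested.

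The median log2 fold change of the regulators was −0.61 to −0.54 at week 12, −0.75 to −0.54 at week 18 and −0.15 to −0.05 between them with each animal left out, and −0.59, −0.67 and −0.03 with the block. With the markers named by the study, their median departure from the B-cell markers moved from 0.02 to 0.47 at week 12 and from −0.17 to 0.41 at week 18, and with each animal left out it was −0.07 to 0.04 and −0.19 to −0.12. Of 630 values of single genes under these alternatives 624 stayed within the replicate spread of the value given in the report, and 6 moved, all with the other marker list. For a fold change this spread was the SD over animals of the difference within animals, which was wide. For *BACH2* at week 12 it was 0.698, so that values from −0.40 to 0.32 were not counted as moved. The count of 624 is therefore no measure of how firm a value is. Depth limits *PAX5*, *EBF1* and *POU2AF1*, with down to 1 count in a library.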
